A study of Homo sapiens with 48 samples.

Results

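The fatty acid and glycerolipid synthesis module is a list of 35 human genes that make fatty acids, activate them and build them into phosphatidic acid, triacylglycerol and lipid droplets. Each gene was measured by the probe set that carries its symbol alone in the platform annotation, and where a gene had several such probe sets, by the brightest. Of the 35 genes, 31 had such a probe set, out of 19775 genes on the array, and 29 exceeded the filter on low values, log2 4 in at least 3 arrays, out of 11356. ELOVL1 and FADS1 had probe sets shared with other genes, ACSL3 and AGPAT3 had no listed probe set of their own, and FADS2 and LPIN3 stayed under the filter, with highest values of 4.02 and 3.26.

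The cells were HK-2, an immortalised line derived from human kidney proximal tubule, and the design compared compounds that the labels group as Tox 1 in a search for expression signatures of kidney toxicity. The 48 arrays formed 16 groups of 3, in 3 sets with vehicle arrays of their own. The CsA set held CsA and vehicle at 12 h and 48 h. A further set held Fk, Ra and shared vehicle arrays at 12 h and 48 h, and the last held Nnm at 2 doses, low and high, with shared vehicle arrays at 24 h and 48 h. All cells were kept in a hormone-supplemented medium that contained insulin and hydrocortisone, were seeded a day earlier and were treated near confluence. The titles of the CsA set name lab 3. The sources used here do not give the compounds' full names, their doses in units or what the vehicle was. The labels call the replicates biological, but do not say whether they were separate cultures, so the p-values measure the spread between these arrays, which may be partly technical.

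In the cytosol, citrate is split to acetyl-CoA, which is carboxylated to malonyl-CoA and built into palmitate by fatty acid synthase. Palmitate is then lengthened, desaturated and coupled to coenzyme A before acyltransferases attach it to glycerol 3-phosphate, giving lysophosphatidic and phosphatidic acid. Phosphatidic acid feeds triacylglycerol through lipins and diacylglycerol acyltransferases, or some of the phospholipids through CDP-diacylglycerol. SREBF1 encodes a transcription factor that switches on many of these genes. Proximal tubule cells live mainly by burning fatty acids and store the excess in droplets.

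The promoter sequences printed here are of 4 genes called with the high dose of Nnm at 24 h, described below. SREBF1 and AGPAT2 fell there and GPAT3 and CDS1 rose, and whether they moved jointly was not tested. ACACA, FASN, PNPLA3 and LPIN1 were called there too and are not printed. Each shows the 250 bases before an annotated start, 5′ to 3′ on the gene's strand, from RefSeq on GRCh38.p14. For GPAT3 this start lies inside the gene, whose annotated span begins at chr4:83535587, so its stretch is within the gene. Capitals mark GC boxes, GGGCGG on either strand, and CCAAT boxes on either strand, of which these 4 windows hold none. The SREBF1 stretch is chr17:17836987-17837236 on the minus strand, that of AGPAT2 is chr9:136687458-136687707 on the minus strand, that of GPAT3 is chr4:83535857-83536106 on the plus strand, and that of CDS1 is chr4:84582877-84583126 on the plus strand.
SREBF1: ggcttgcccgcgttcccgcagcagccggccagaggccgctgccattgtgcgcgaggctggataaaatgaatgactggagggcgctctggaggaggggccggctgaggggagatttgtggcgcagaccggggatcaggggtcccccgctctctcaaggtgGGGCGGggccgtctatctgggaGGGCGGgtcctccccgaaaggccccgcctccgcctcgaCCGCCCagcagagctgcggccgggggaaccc
AGPAT2: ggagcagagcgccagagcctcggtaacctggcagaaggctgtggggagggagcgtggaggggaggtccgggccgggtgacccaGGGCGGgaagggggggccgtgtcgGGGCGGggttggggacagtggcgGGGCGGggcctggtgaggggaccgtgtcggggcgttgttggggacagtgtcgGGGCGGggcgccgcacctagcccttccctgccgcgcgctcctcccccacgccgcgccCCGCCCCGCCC
GPAT3: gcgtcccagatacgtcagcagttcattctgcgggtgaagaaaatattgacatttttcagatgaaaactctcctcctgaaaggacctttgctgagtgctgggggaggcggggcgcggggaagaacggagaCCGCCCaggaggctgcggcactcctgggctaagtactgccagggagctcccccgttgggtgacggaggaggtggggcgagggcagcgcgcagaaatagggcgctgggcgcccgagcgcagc
CDS1: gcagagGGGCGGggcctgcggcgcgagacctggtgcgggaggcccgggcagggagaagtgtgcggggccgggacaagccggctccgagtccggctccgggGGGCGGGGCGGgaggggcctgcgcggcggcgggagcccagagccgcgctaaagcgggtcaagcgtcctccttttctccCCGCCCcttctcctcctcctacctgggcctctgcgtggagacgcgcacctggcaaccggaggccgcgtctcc
The stretches hold 3, 6, 1 and 4 GC boxes in that order, so genes that rose and genes that fell both carry them. In 300-base windows that begin 250 bases before an annotated start and run past it, the RefSeq table covers 28 of the 35 genes. The GC box was found for 26 of these 28 genes, against 44.95% of all 35116 windows. The CCAAT box was found for 15 of the 28, against 34.61% of all windows. The sterol regulatory element TCACNCCAC was found for ACSL1 and PNPLA2, against 1.13% of all windows, and the E-box CACGTG for ELOVL5, LPIN2 and PLIN2, against 7.26%. Several genes have more than 1 window, so shares of genes and of windows are not on the same base. Counted by window, 35 of the 47 windows of these genes held the GC box and 19 the CCAAT box. The sterol regulatory element was in 2 of the 47 and the E-box in 3. A match is a run of letters and not a binding site.

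Levels below are log2 expression values. A change is the difference of group means, treated minus vehicle of the same set and time, with its standard error, and a gene is called at an adjusted p under 0.05 from limma, Benjamini-Hochberg over all 11356 genes of the comparison. This fit did not pair arrays by replicate number, although the arrays of the CsA and Nnm sets paired by it. Fits with that number as a block are given as an alternative. Over all genes tested, the median standard error was 0.26 for a change and 0.36 for a difference between changes, and the number of arrays limits the precision. Arrays of a group correlated between 0.9793 and 0.9977 over all probe sets, including those under the filter. The 5 epithelial markers listed passed the filter, while 3 of 14 proximal tubule markers did, DPP4, SLC3A1 and GGT1, and LRP2, CUBN and AQP1 did not. The label of a proximal tubule cell therefore rested on few of its defining transcripts. None of the 4 leukocyte markers, 1 of 4 endothelial, 1 of 5 adipocyte and 2 of 5 fibroblast markers passed, and the summed fibroblast level ran from 9.65 to 12.25 over the groups. In the array of Ra at 48 h replicate 2 the upper quartile of all probe sets was 6.20, against 6.85 to 7.24 in the others, so results that use it are given with and without it.

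The genes varied unequally over the 16 groups. Group means of DGAT2, which adds the last acyl chain of triacylglycerol, spanned 3.56 log2 units, from 4.22 with CsA at 48 h to 7.78 with the high dose of Nnm at 24 h, with a pooled SD within groups of 0.64. Its lowest group lay near the filter of log2 4, with 1 of 3 arrays under it, so a low signal limits how exactly this span is known. GPAT3, a glycerol 3-phosphate acyltransferase of the endoplasmic reticulum, spanned 2.97 with an SD of 0.67, PNPLA3, a droplet protein with lipase and acyltransferase activity, spanned 2.83 with an SD of 0.50, and FASN spanned 2.45 with an SD of 0.50. The smallest span was that of ELOVL5, an elongase of polyunsaturated chains, at 0.50 with an SD of 0.14. ACACA spanned 0.55 with an SD of 0.19 and SCD 0.71 with an SD of 0.27. ACACA and SCD thus varied little between groups. ACACB, the other acetyl-CoA carboxylase of the list, spanned 1.55 with an SD of 0.43, and FADS3 spanned 1.45 with an SD of 0.37.

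**Figure D1:**
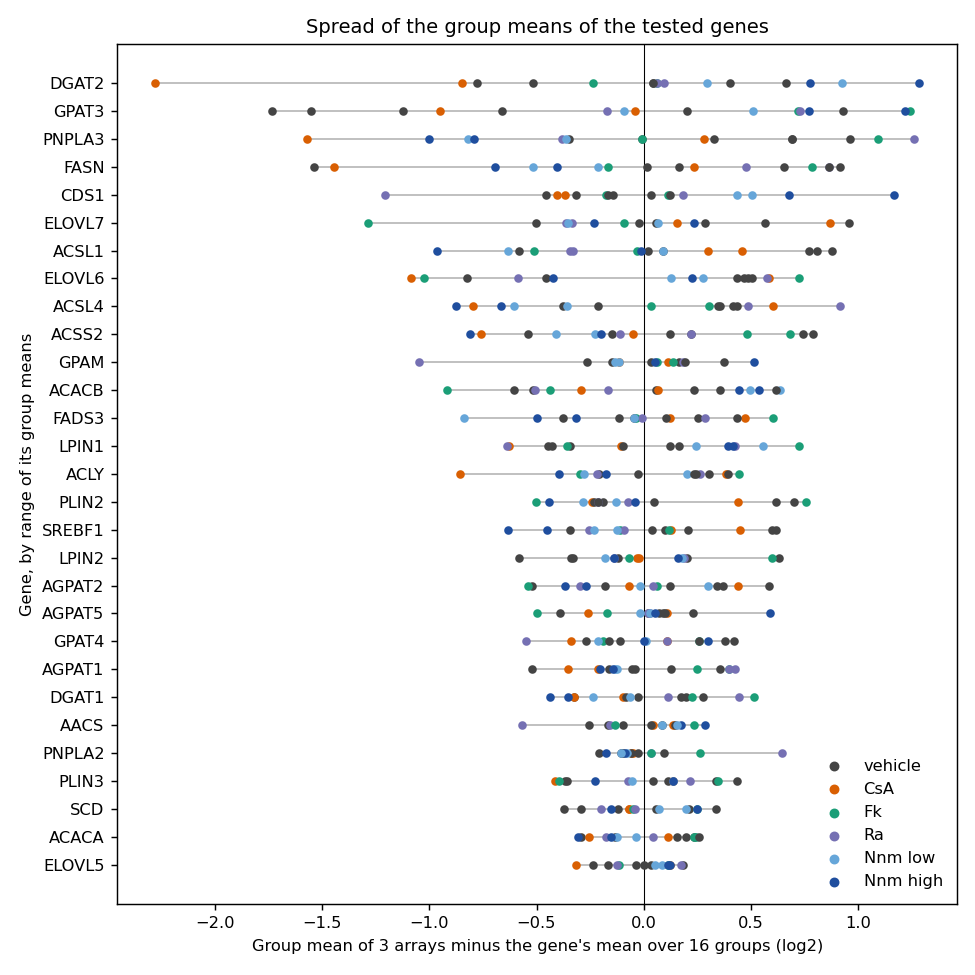
Each point is the mean of the 3 arrays of a group minus the gene's mean over the 16 groups (x axis, log2), for each of the 29 genes tested (y axis, in order of span), with vehicle and compounds in different colours and a grey line from the lowest to the highest group. The span grows from 0.50 for ELOVL5 at the bottom to 3.56 for DGAT2 at the top, where CsA at 48 h lies farthest to the left.

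With the high dose of Nnm at 24 h, the regulator SREBF1, the chain-building enzymes ACACA and FASN, the acyltransferase AGPAT2 and the droplet protein PNPLA3 fell, while an entry enzyme of glycerolipid synthesis, a lipin and a phospholipid enzyme rose. Of the 29 genes, 3 rose and 5 fell, where 23.1% of all genes tested were called (10.5% higher and 12.5% lower), so the share was near the background and the result lies in which genes moved. Those that rose were GPAT3, LPIN1 and CDS1. The median change of the 29 genes was -0.21, beside -0.01 for all genes tested. At 48 h, GPAT3 rose and SREBF1, ACLY, FASN, AGPAT2 and PNPLA3 fell, which is 1 rise and 5 falls where 16.8% of all genes were called (8.89% higher and 7.88% lower). The median there was -0.16, beside 0.02. A lower level in these bulk arrays can come from fewer cells that carry a transcript or from less of it per cell, which cannot be told apart.

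SREBF1 read 8.39, 7.88 and 8.28 in the vehicle arrays at 24 h and 7.13, 7.43 and 6.76 with the high dose. At 48 h it read 8.26, 7.85 and 8.37 in vehicle and 6.75, 7.06 and 6.97 with the high dose. All treated arrays lay below all vehicle arrays at both times. The fall was 1.07 at 24 h (change -1.07, SE 0.26, adjusted p 0.00362) and 1.24 at 48 h (change -1.24, SE 0.26, adjusted p 0.00143), and both calls held with any of the 6 arrays left out.

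Among the enzymes that make palmitate, FASN, the synthase itself, read 10.02, 9.45 and 10.21 in vehicle and 8.50, 8.79 and 8.56 with the high dose at 24 h. At 48 h it read 9.91, 9.25 and 9.86 against 8.27, 8.41 and 8.32. The groups did not overlap at either time, and the 48 h treated arrays lay within a narrow band (SD 0.07, n = 3). FASN fell 2.42-fold at 24 h (change -1.28, SE 0.39, adjusted p 0.0178) and 2.54-fold at 48 h (change -1.34, SE 0.39, adjusted p 0.0175), and each call held in 2 of the 6 fits that left out an array. ACLY, which makes acetyl-CoA from citrate, read 12.63, 12.55 and 12.66 in vehicle and 11.77, 12.16 and 12.00 with the high dose at 48 h, without overlap. It fell there (change -0.63, SE 0.20, adjusted p 0.031), a call that held in 1 of the 6 fits, while its change at 24 h was -0.42 (SE 0.20, adjusted p 0.134), with overlapping groups. ACACA, acetyl-CoA carboxylase, read 9.60, 9.62 and 9.40 in vehicle and 8.82, 9.44 and 8.99 with the high dose at 24 h, so that 1 treated array reached into the vehicle range. Its fall was small (change -0.45, SE 0.16, adjusted p 0.0366) and held in 2 of the 6 fits, and at 48 h the change of -0.41 missed the threshold (adjusted p 0.0729) but passed it with the replicate number as a block (0.0421) and with centred arrays (0.0288).

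SCD, the desaturase that makes oleate, read 14.28, 14.24 and 14.14 in vehicle and 13.89, 14.26 and 13.87 with the high dose at 24 h. Its changes were -0.21 at 24 h and -0.09 at 48 h (SE 0.22 each, adjusted p 0.539 and 0.836), both with overlapping groups. Its values thus lay close to those of vehicle in the same arrays in which FASN and SREBF1 were low. The elongases and FADS3 were not called either: ELOVL6 changed by -0.90 at 24 h and -0.21 at 48 h, and its treated arrays at 24 h read 8.41, 9.57 and 8.23.

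Of the acyl-CoA synthetases, ACSL1, which activates long chains, read 12.13, 12.50 and 12.13 in vehicle and 10.61, 12.03 and 10.99 with the high dose at 24 h. At 48 h it read 12.88, 13.17 and 13.09 against 11.90, 12.51 and 12.06. The groups did not overlap at either time. The changes of -1.05 (SE 0.42, adjusted p 0.0677) and -0.89 (SE 0.42, adjusted p 0.148) missed the threshold, and with the replicate number as a block they passed it (adjusted p 0.0153 and 0.046). ACSS2, which activates acetate, had changes of -0.93 and -0.94 that were not called.

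GPAT3 had the largest change of the 29 genes at both times. It read 6.48, 6.20 and 6.65 in vehicle and 9.79, 7.66 and 10.19 with the high dose at 24 h. At 48 h the values were 5.85, 6.14 and 6.78 against 9.38, 7.40 and 9.50. The treated groups lay wholly above vehicle, with replicate 2 the lowest of each. GPAT3 rose 6.82-fold at 24 h (change 2.77, SE 0.53, adjusted p 0.00041) and 5.67-fold at 48 h (change 2.50, SE 0.53, adjusted p 0.00136), and both calls held with any array left out. GPAM and GPAT4, the other acyltransferases of this step, were not called, with changes of 0.49 and 0.05 at 24 h and 0.20 and 0.16 at 48 h.

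AGPAT2, which adds the next acyl chain and makes phosphatidic acid, moved the other way. It read 9.86, 9.49 and 9.73 in vehicle and 8.33, 9.42 and 8.46 with the high dose at 24 h, and 9.51, 9.11 and 9.73 against 8.75, 8.76 and 9.02 at 48 h. The groups did not overlap, although replicate 2 at 24 h lay just under the vehicle arrays. AGPAT2 fell at 24 h (change -0.95, SE 0.20, adjusted p 0.00119) with any array left out, and at 48 h (change -0.61, SE 0.20, adjusted p 0.0371) in 1 of 6 such fits. Its second probe set changed by -0.96 and -0.53. AGPAT1 and AGPAT5 were not called.

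Both branches after phosphatidic acid held a gene that rose at 24 h. LPIN1, a phosphatase that makes diacylglycerol, read 9.34, 9.34 and 9.18 in vehicle and 10.16, 10.14 and 10.07 with the high dose, without overlap (change 0.84, SE 0.26, adjusted p 0.0177). CDS1, which turns phosphatidic acid into CDP-diacylglycerol for phosphatidylinositol, read 7.30, 7.34 and 7.37 in vehicle and 9.11, 7.91 and 8.99 with the high dose. Its groups did not overlap (change 1.34, SE 0.45, adjusted p 0.0284), and its other probe sets rose too, by 1.69 and 1.18. The call of CDS1 held in 1 of the 6 fits that left out an array and that of LPIN1 in 3. At 48 h LPIN1 changed by 0.49 and CDS1 by 0.55, without a call. DGAT2 read 6.85, 5.85 and 6.91 in vehicle and 8.18, 6.63 and 8.54 at 24 h, an overlapping change of 1.25 (SE 0.50, adjusted p 0.0699) that passed with the replicate block (adjusted p 0.0249) and with centred arrays (0.0478). DGAT1, LPIN2, PLIN2 and PLIN3 were not called at either time, although DGAT1, with a change of -0.63 at 24 h, passed with centred arrays (adjusted p 0.0339).

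PNPLA3 read 7.62, 7.78 and 7.40 in vehicle and 5.78, 7.04 and 5.99 with the high dose at 24 h, and 7.94, 7.87 and 8.09 against 6.19, 6.85 and 6.39 at 48 h. It was lower in every treated array, and its second probe set changed by -1.20 and -1.66. PNPLA3 fell 2.52-fold at 24 h (change -1.33, SE 0.39, adjusted p 0.014) and 2.80-fold at 48 h (change -1.49, SE 0.39, adjusted p 0.00895), calls that held in 4 and 5 of the 6 fits. PNPLA2, the main triacylglycerol lipase of droplets, differed little, with changes of -0.03 and 0.04.

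The count at 24 h depended on single arrays. It was 5 without vehicle replicate 1 or vehicle replicate 3, 3 without high-dose replicate 1 or high-dose replicate 3, and 15 without high-dose replicate 2, whose values lay closer to vehicle. At 48 h it was 3 without vehicle replicate 1, vehicle replicate 3 or high-dose replicate 3, and 2 without high-dose replicate 1. With the replicate number as a block the counts were 10 at 24 h and 8 at 48 h. Among the markers, DPP4 rose by 1.00 and PECAM1 by 0.82 at 48 h (adjusted p 0.0107 and 0.0068), and their part in these results was not tested. PECAM1 averaged 4.38 over all arrays, near the filter of log2 4, with a highest value of 5.43, so low signal limits its change. Neither fibroblast marker tested, DCN and COL1A1, was called with Nnm.

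**Figure D2:**
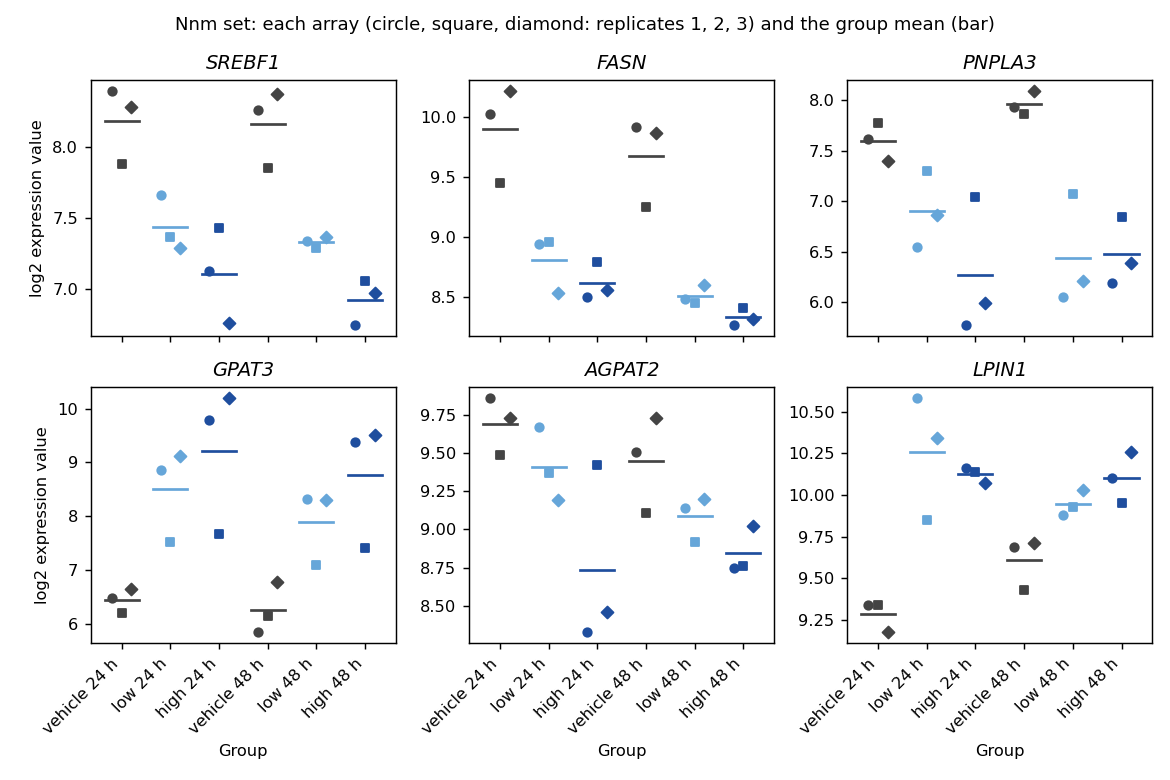
Each panel plots 1 gene in the 6 groups of the Nnm set (x axis) as log2 expression values (y axis, range set for each panel); symbols are replicates 1, 2 and 3 and the bar is the mean. SREBF1 and FASN lie below vehicle in every treated group, GPAT3 lies above, and the square of replicate 2 sits nearest to vehicle for GPAT3 and PNPLA3.

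At the low dose of Nnm fewer genes were called. At 24 h GPAT3 and LPIN1 rose and none of the 29 genes fell, where 8.29% of all genes were called (3.58% higher and 4.71% lower). At 48 h PNPLA3 fell and none rose, where 5.22% were called (2.77% higher and 2.45% lower). The medians were -0.14 and -0.12, beside 0.01 and 0.02 for all genes. GPAT3 read 8.86, 7.51 and 9.12 at 24 h, 4.15-fold above vehicle (change 2.05, SE 0.53, adjusted p 0.0144). LPIN1 read 10.58, 9.85 and 10.34 (change 0.98, SE 0.26, adjusted p 0.0174), and PNPLA3 at 48 h read 6.05, 7.07 and 6.21 (change -1.52, SE 0.39, adjusted p 0.0183). Each of these groups lay wholly on 1 side of its vehicle arrays, but no call held with every array left out. The 24 h count was 0 without low-dose replicate 1, low-dose replicate 3 or vehicle replicate 3. The 48 h count was 0 without replicate 1 or 3 of either group and 2 without low-dose replicate 2. The marker DPP4 rose by 1.18 at 48 h (adjusted p 0.00768), and its part in the result was not tested.

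Several changes at the low dose that missed the threshold passed it with the replicate block, which gave 2 rises and 1 fall at 24 h and 1 rise and 2 falls at 48 h. With centred arrays the splits were 2 rises and 1 fall, and 1 rise and 3 falls. SREBF1 read 7.66, 7.37 and 7.29 at 24 h and 7.34, 7.29 and 7.37 at 48 h, below every vehicle array. Its changes were -0.74 (SE 0.26, adjusted p 0.072) and -0.83 (SE 0.26, adjusted p 0.0557), and with the block the adjusted p-values were 0.0342 and 0.0227. GPAT3 at 48 h read 8.31, 7.09 and 8.29 (change 1.64, SE 0.53, adjusted p 0.0612, and 0.00118 with the block). FASN read 8.94, 8.96 and 8.53 at 24 h and 8.48, 8.45 and 8.60 at 48 h, again without overlap. Its changes of -1.08 and -1.17 (SE 0.39 each, adjusted p 0.0798 and 0.074) were not called with or without the block, while with centred arrays that at 48 h was (adjusted p 0.0472). ACLY changed by -0.04 and -0.51, ACACA by -0.19 and -0.38 and SCD by 0.01 and -0.14, none of them called.

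The test of the high dose against the low dose called 0 of the 29 genes at either time, where 0.00881% and 0.0176% of all genes were called. At an unadjusted p under 0.05, 2 and 0 of the 29 genes differed, and without high-dose replicate 2 at 24 h 2 were called there. The change at 48 h against that at 24 h also gave 0 called genes at the low dose, where 0.0% of all genes were called, and 0 at the high dose, where 0.00881% were. At an unadjusted p under 0.05 the counts were 0 and 0. These counts do not show that the doses or times acted alike. The median standard error was 0.26 for a difference between 2 groups, such as the doses. It was 0.36 for a difference between changes, such as the times.

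**Figure D3:**
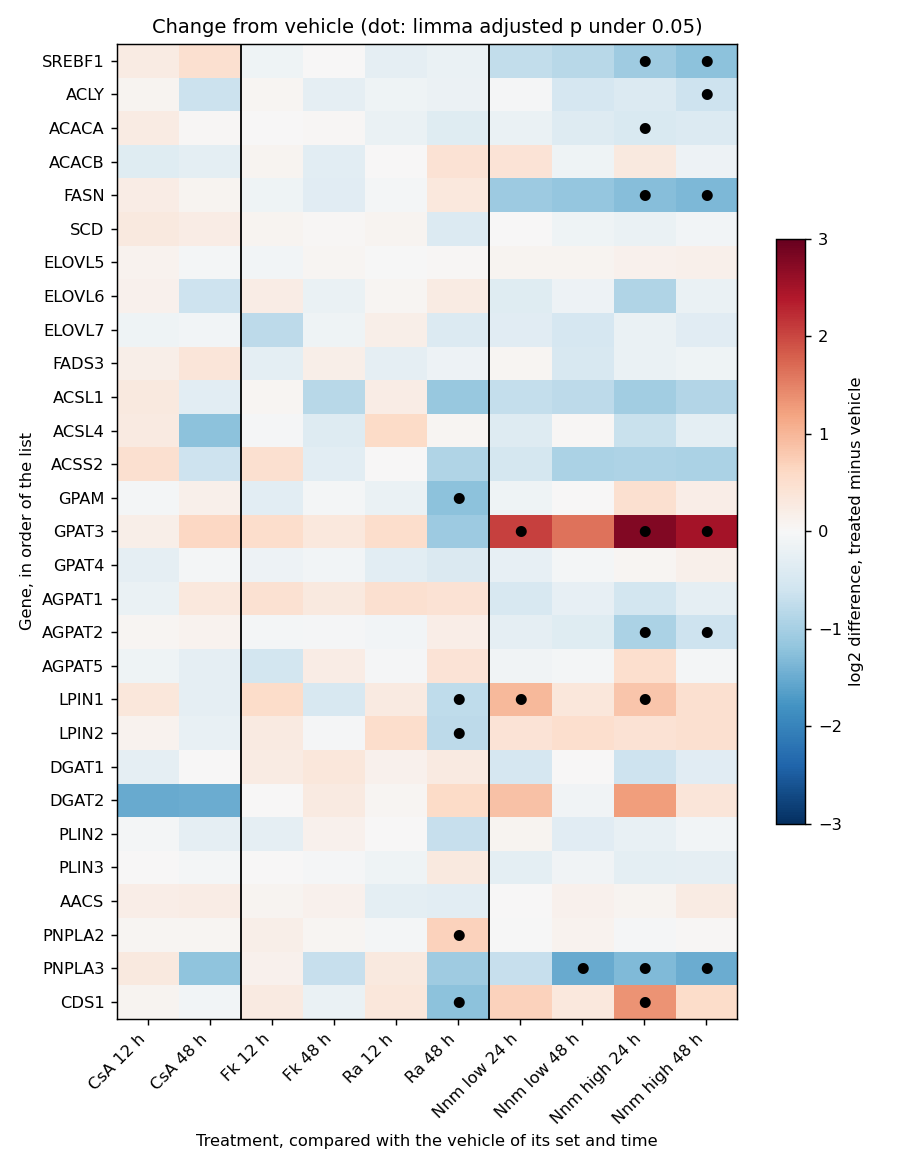
Colour gives the log2 change from vehicle (scale from -3 to 3) for the 29 genes tested (rows) in the 10 treatment comparisons (columns, in 3 sets divided by lines), and a dot marks a limma adjusted p under 0.05. GPAT3 is red in the 4 Nnm columns, with dots in 3 of them, FASN and SREBF1 are blue there, and the dots of the Ra column at 48 h are all lost without Ra replicate 2.

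With Ra at 48 h, 1 of the 29 genes rose and 4 fell, where 18.5% of all genes were called (2.97% higher and 15.6% lower) and the median of all genes was -0.18. The median of the 29 genes was -0.19. Without Ra replicate 2, 0 genes were called, where 7.19% of all genes were. PNPLA2 rose (change 0.68, SE 0.20, adjusted p 0.0155), while LPIN2 (change -0.78, SE 0.20, adjusted p 0.00592), LPIN1 (change -0.76, SE 0.26, adjusted p 0.0369), GPAM (change -1.24, SE 0.44, adjusted p 0.0444) and CDS1 (change -1.23, SE 0.45, adjusted p 0.0499) fell. Over all genes tested, 337 were higher and 1769 lower, against 1028 and 903 with each array centred on its median and 843 and 1038 with quantile normalization. With centred arrays the split of the 29 genes was 2 rises and 0 falls, PNPLA2 at 0.93 (adjusted p 0.0184) and AGPAT5 at 0.66 (adjusted p 0.0318).

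For GPAM and CDS1 that single array stood apart. GPAM, the mitochondrial glycerol 3-phosphate acyltransferase, read 8.0, 8.49 and 8.01 in vehicle and 7.90, 4.89 and 8.0 with Ra. CDS1 read 7.56, 7.41 and 7.64 in vehicle and 7.25, 4.54 and 7.12 with Ra. PNPLA2 read 6.46, 6.32 and 6.44 in vehicle and 6.50, 8.02 and 6.73 with Ra. Without replicate 2 the changes were -0.22, -0.35 and 0.21 (adjusted p 0.746, 0.647 and 0.365). LPIN2, a second lipin, read 7.69, 8.11 and 7.76 in vehicle and 7.42, 6.68 and 7.13 with Ra, with all Ra arrays lower, and without replicate 2 its change was -0.58 (adjusted p 0.0803). LPIN1 read 9.20, 10.00 and 10.28 in vehicle and 9.52, 8.60 and 9.09 with Ra, with overlap, and its change without that array was -0.52 (adjusted p 0.263). The count was also 0 without vehicle replicate 2, 2 without vehicle replicate 3 and 11 without Ra replicate 1. The fibroblast marker COL1A1 fell in the same comparison, by 1.04 (change -1.04, adjusted p 0.0241), and its part in the result was not tested.

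SREBF1, ACLY, ACACA, FASN and SCD were not called with Ra at 48 h. Their changes were -0.19, -0.18, -0.37, 0.31 and -0.41, and with centred arrays 0.06, 0.07, -0.12, 0.56 and -0.16, so those of SREBF1 and ACLY changed sign with the scaling. With Ra at 12 h, 0 of the 29 genes were called, where 0.0704% of all genes were (0.0528% higher and 0.0176% lower), and 1 passed an unadjusted p of 0.05. With Fk, 0 were called at 12 h and 0 at 48 h, where 0.0% of all genes were at each time, and 3 and 0 passed an unadjusted p of 0.05. The lowest adjusted p among the 29 genes was 0.43 with Ra at 12 h and 0.589 with Fk at 12 h.

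Fk was compared with Ra directly, since both share their vehicle arrays. At 12 h, 0 of the 29 genes differed, where 0.00881% of all genes did. At an unadjusted p under 0.05, 3 genes differed, and 1 was called without Fk replicate 2. At 48 h, 1 of the 29 was higher and 1 lower with Fk, where 17.3% of all genes differed (15.2% higher and 2.12% lower). With centred arrays 0 were higher and 3 lower, and over all genes the split moved from 1721 higher and 241 lower to 713 and 855. LPIN2 read 8.12, 7.74 and 7.60 with Fk, above the Ra arrays (difference 0.74, SE 0.20, adjusted p 0.00875), and PNPLA2 read 6.61, 6.40 and 6.40 with Fk (difference -0.61, SE 0.20, adjusted p 0.0287), overlapping Ra. Without Ra replicate 2 neither was called, with differences of 0.55 and -0.14 (adjusted p 0.119 and 0.606). Leaving out a Fk array gave 0 calls for replicate 1, 1 for replicate 2 and 4 for replicate 3, and leaving out a Ra array gave 8 for replicate 1 and 5 for replicate 3. The endothelial marker PECAM1, whose signal lay near the filter, differed too (-0.70, adjusted p 0.0193), and its part in the result was not tested.

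The change with Ra at 48 h against that at 12 h differed for LPIN2 alone of the 29 genes, where 3.62% of all genes differed (0.308% higher and 3.31% lower, or 148 genes higher and 196 lower with centred arrays). LPIN2 read 7.00, 7.03 and 6.60 in vehicle and 7.30, 7.69 and 7.24 with Ra at 12 h, a change of 0.53 that was not called, and its second probe set changed by -0.22. The difference between the times was -1.31 (SE 0.28, adjusted p 0.0107), it held with any of the 12 arrays left out, and without Ra replicate 2 at 48 h it was -1.11 (adjusted p 0.0462). It missed the threshold with the mean of probe sets (-0.96, adjusted p 0.0569), with the set's arrays alone (adjusted p 0.115) and with centred arrays without that replicate (adjusted p 0.0521). From 12 h to 48 h the vehicle level of LPIN2 itself rose by 0.98 (limma adjusted p 0.000727), and this rise is part of the difference. Leaving out Ra replicate 1 at 48 h raised the count to 5. For Fk the same difference called 0 of the 29 genes, where 0.0% of all genes were called, and 2 passed an unadjusted p of 0.05.

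**Figure D4:**
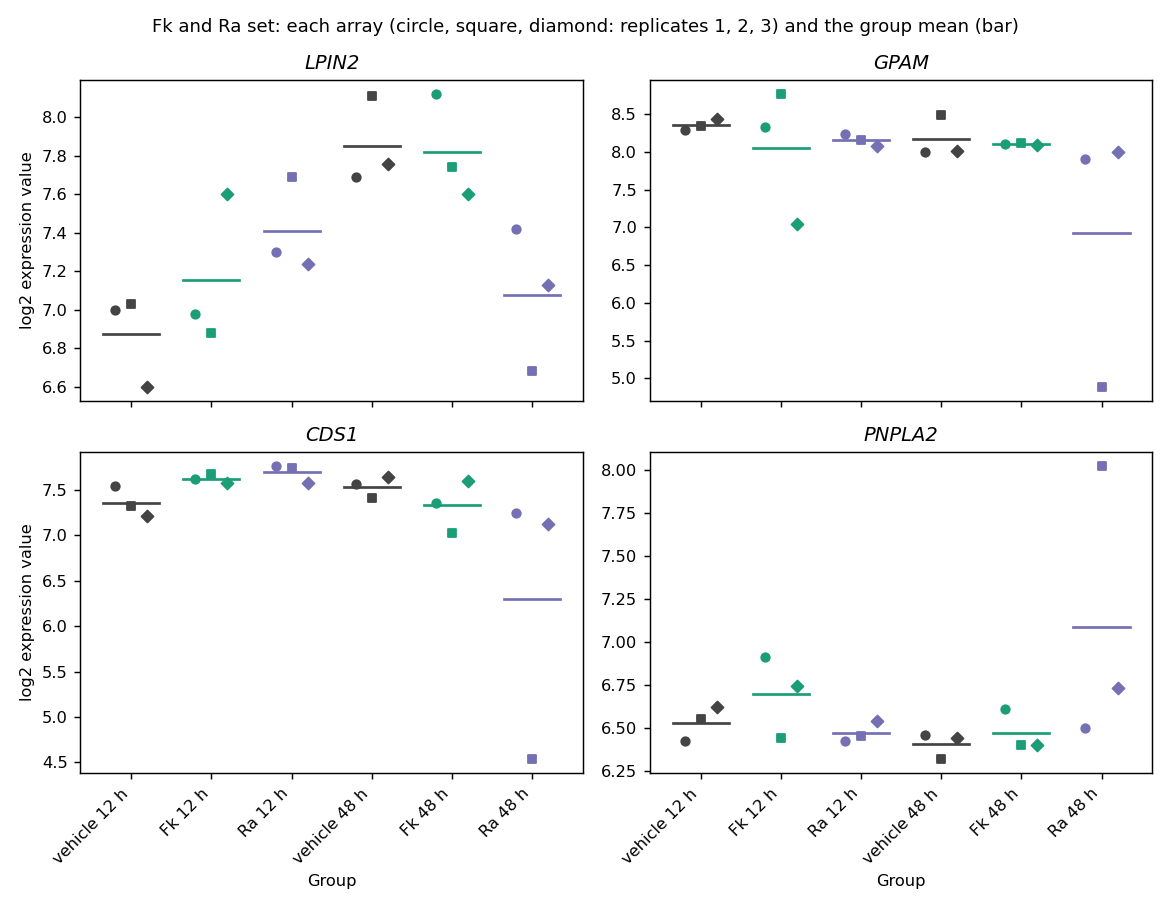
Each panel plots 1 gene in the 6 groups of the Fk and Ra set (x axis) as log2 expression values (y axis, range set for each panel); symbols are replicates 1, 2 and 3 and the bar is the mean. In the last column the square of Ra replicate 2 stands apart, at 4.89 for GPAM, 4.54 for CDS1 and 8.02 for PNPLA2.

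With CsA, 0 of the 29 genes were called at 12 h, where 0.0% of all genes were, and 0 at 48 h, where 1.02% were (0.299% higher and 0.722% lower, or 58 genes higher and 77 lower with centred arrays). At an unadjusted p under 0.05 the counts were 1 and 4. With the replicate block, DGAT2 passed at 48 h. It read 6.67, 7.04 and 7.78 in vehicle and 5.63, 5.55 and 5.78 with CsA at 12 h, and 7.10, 5.04 and 5.03 in vehicle and 4.96, 4.38 and 3.33 with CsA at 48 h. The CsA arrays lay below vehicle at both times, although the vehicle arrays at 48 h were themselves spread widely (SD 1.19, n = 3). With 1 CsA array at 48 h under log2 4, the exact size there is limited by low signal. The changes were -1.51 and -1.50 (SE 0.50 each, adjusted p 1 and 0.16), and with the block the adjusted p at 48 h was 0.0404. Without CsA replicate 1 the count at 48 h was 1.

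SREBF1, ACACA, FASN and SCD changed by 0.47, 0.04, 0.09 and 0.22 with CsA at 48 h and ACLY by -0.65 (SE 0.20, adjusted p 0.132), all with overlapping groups. PNPLA3 read 7.37, 6.52 and 6.86 in vehicle and 6.13, 5.76 and 5.21 with CsA, a change of -1.21 that was not called. The change with CsA at 48 h against that at 12 h, and the change with CsA against that with Fk at 48 h, each called 0 genes, where 0.0% of all genes were called. At an unadjusted p under 0.05 the counts were 2 and 1. Against the change with Ra at 48 h, DGAT2 differed (difference -2.08, SE 0.71, adjusted p 0.0415), as the 1 gene of 29 where 16.5% of all genes did. Over all genes, 1343 were higher and 530 lower, against 935 and 940 with centred arrays. With the replicate block 3 of the 29 differed. Without Ra replicate 2 the difference was -2.55 (adjusted p 0.0197). The call of DGAT2 held in 5 of the 12 fits that left out an array, and was missed without the filter on low values (adjusted p 0.0776). The count was 0 without CsA replicate 2, CsA replicate 3, CsA vehicle replicate 1 or replicate 1 or 2 of the other set's vehicle, and 2 without Ra replicate 1.

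Some of the genes also changed with time in vehicle cells, at shares near or below those of all genes. In the CsA set from 12 h to 48 h, PLIN2 and ELOVL7 rose and FASN fell, where 13.7% of all genes were called (6.12% higher and 7.56% lower). FASN read 8.95, 8.96 and 9.21 at 12 h and 7.87, 6.76 and 7.84 at 48 h, without overlap, a 2.93-fold fall (change -1.55, SE 0.39, adjusted p 0.00822). PLIN2, which coats lipid droplets, read 11.01, 11.12 and 11.19 at 12 h and 11.48, 11.52 and 13.00 at 48 h, so that replicate 3 stood above the others (change 0.89, SE 0.31, adjusted p 0.0459). ELOVL7 rose by 0.68 (SE 0.23, adjusted p 0.0481). The count was 1 without any of the 12 h vehicle arrays or without replicate 2 at 48 h, 5 without replicate 1 at 48 h and 6 with the replicate block, which added falls of GPAT4, DGAT2 and PLIN3. With centred arrays 2 rose and 4 fell.

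In the vehicle arrays of the Fk and Ra set, 3 genes rose and 4 fell from 12 h to 48 h, where 19.8% of all genes were called (10.1% higher and 9.71% lower). LPIN2 rose by 0.98 (SE 0.20, adjusted p 0.000727), with any array left out. ACSL1 read 11.99, 11.95 and 10.84 at 12 h and 12.71, 13.02 and 13.21 at 48 h, a rise of 1.39 (SE 0.42, adjusted p 0.0174). PLIN2 rose by 0.85 (SE 0.31, adjusted p 0.0449), a call missed with centred arrays (adjusted p 0.0502). ELOVL6, which lengthens palmitate, read 9.67, 9.96 and 9.34 at 12 h and 7.56, 8.39 and 9.05 at 48 h, a fall of 1.32 (change -1.32, SE 0.38, adjusted p 0.0116). PLIN3, AGPAT2 and ELOVL5 fell by smaller amounts (changes -0.70, -0.64 and -0.35, adjusted p 0.017, 0.0231 and 0.0462). The count was 4 without replicate 2 and 2 without replicate 3 at 12 h, and 2 without replicate 1 and 3 without replicate 2 at 48 h. Between 24 h and 48 h the Nnm vehicle arrays gave 0 called genes, where 0.0% of all genes were, and 1 passed an unadjusted p of 0.05.

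Vehicle levels also differed between the sets, which were normalized together in the deposited table, and set and group cannot be told apart there. GPAT3 averaged 6.44 and 6.26 in the Nnm vehicle groups (SD 0.23 and 0.48), 6.87 and 7.33 in those of the CsA set (SD 0.18 and 0.41), and 8.19 and 8.92 in those of the Fk and Ra set (SD 0.59 and 0.32, n = 3 in each). The high dose of Nnm averaged 9.21 at 24 h and 8.76 at 48 h (SD 1.36 and 1.18), so its levels lay near the 8.92 of vehicle cells of the Fk and Ra set at 48 h. FASN averaged 7.49 in CsA vehicle at 48 h (SD 0.63), below the 8.33 of the high dose of Nnm at 48 h (SD 0.07).

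**Figure D5:**
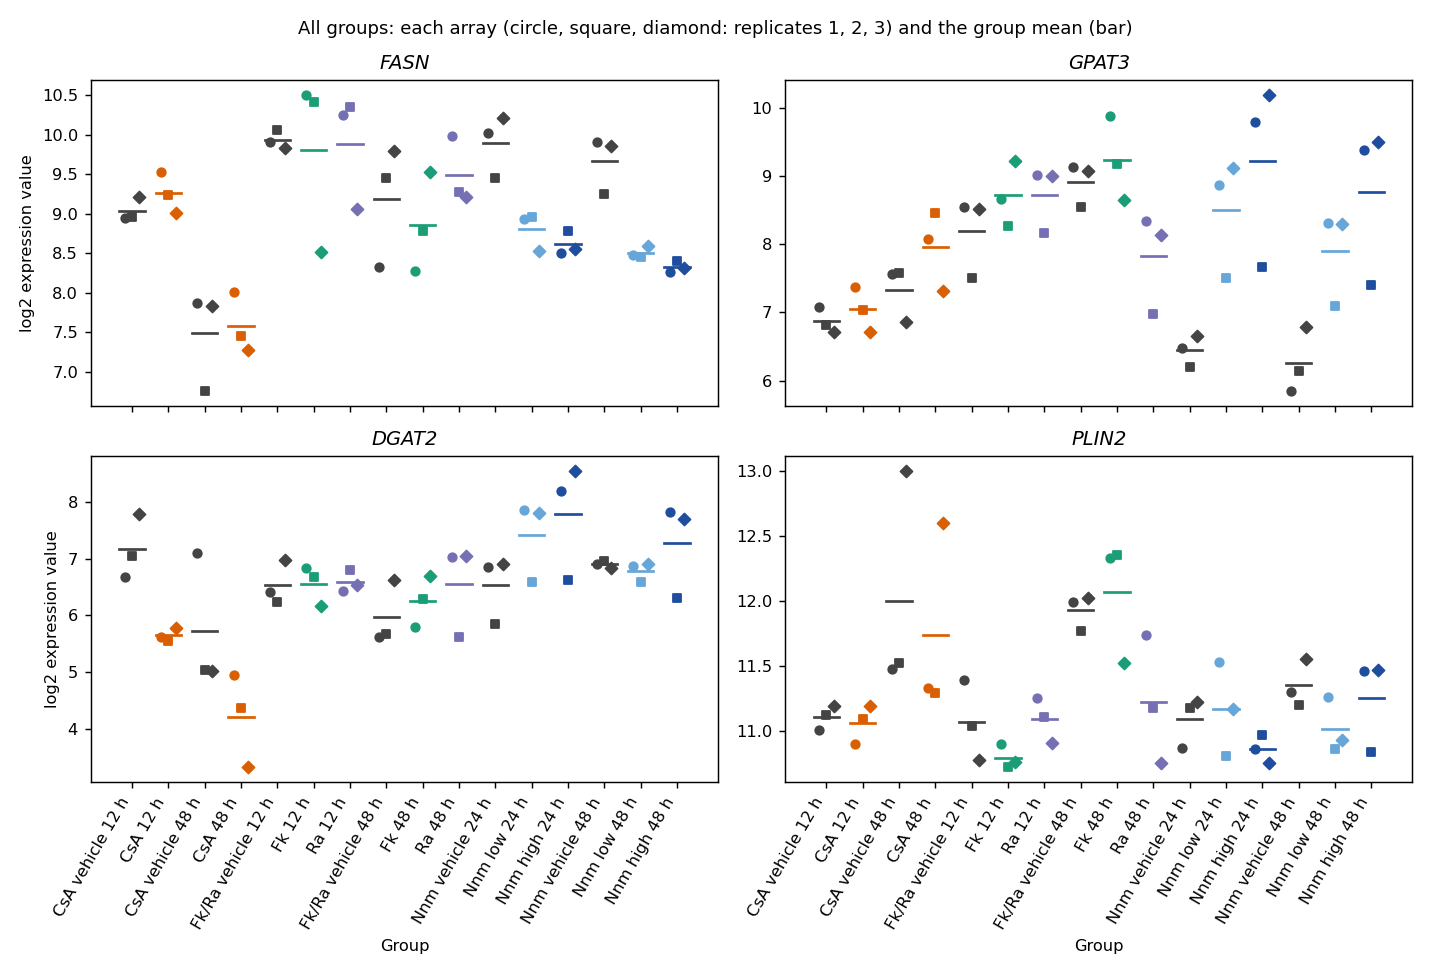
Each panel plots 1 gene in all 16 groups (x axis) as log2 expression values (y axis, range set for each panel); symbols are replicates 1, 2 and 3 and the bar is the mean. GPAT3 is lowest in the Nnm vehicle groups and high in the Fk and Ra set, FASN is lowest in the CsA set at 48 h, and DGAT2 is lowest with CsA at 48 h, at a mean of 4.22.

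The change with the high dose of Nnm was then set against that with Ra at 48 h, a comparison added after the values were seen. Of the 29 genes, 4 differed upward and 3 downward, where 16% of all genes differed (12.6% higher and 3.36% lower) and the median of all genes was 0.21. With centred arrays 3 differed upward and 6 downward, and over all genes the split moved from 1436 higher and 382 lower to 875 and 1164. GPAT3 differed by 3.60 (SE 0.75, adjusted p 0.00193) and LPIN2 by 1.27 (SE 0.28, adjusted p 0.00308), both with any of the 12 arrays left out. LPIN1 differed by 1.25 (SE 0.36, adjusted p 0.0189) and CDS1 by 1.79 (SE 0.63, adjusted p 0.049). FASN, SREBF1 and AGPAT2 differed by -1.65, -1.05 and -0.82 (SE 0.56, 0.37 and 0.29, adjusted p 0.0387, 0.0487 and 0.0466). Of the 12 fits that left out an array, the calls held in 8 for LPIN1, 5 for FASN, 4 for SREBF1, 3 for AGPAT2 and 2 for CDS1. Without the filter on low values FASN, SREBF1, AGPAT2 and CDS1 missed the threshold (adjusted p 0.0705, 0.0808, 0.0689 and 0.0899). Without Ra replicate 2, 4 genes were called, and the differences of CDS1, LPIN1 and FASN missed the threshold at 0.90, 1.01 and -1.76 (adjusted p 0.25, 0.0735 and 0.0546). The count was 3 without Nnm vehicle replicate 1 or 3, high-dose replicate 1, or replicate 1 or 2 of the Ra vehicle, and 2 without high-dose replicate 3. The marker DPP4 differed too (1.42, adjusted p 0.0119), and its part in the result was not tested.

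Other genes of lipid synthesis came from a list of 83 genes in 8 roles, of which 63 were tested. With the high dose of Nnm, 6 rose and 8 fell at 24 h, where 23.1% of all genes were called, and 10 rose and 8 fell at 48 h, where 16.8% were. At the low dose, 3 rose and 7 fell at 24 h, where 8.29% of all genes were called, and 3 rose and 2 fell at 48 h, where 5.22% were. The share at the high dose at 24 h was thus near that of all genes. The medians of the list ran from -0.10 to 0.04 over these comparisons. SLC27A3, an acyl-CoA synthetase of the fatty acid transport family, rose in all 4, from 4.29 to 6.32 at the high dose and 6.50 at the low dose at 24 h (changes 2.03 and 2.21, adjusted p 6.04e-05 and 6.56e-05), and by 2.15 and 1.78 at 48 h (adjusted p 3.1e-05 and 0.000758). Its vehicle level of 4.29 at 24 h lay near the filter of log2 4, so low signal limits how exactly the size of its rise is known.

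LPCAT1, which reacylates lysophosphatidylcholine, fell in all 4 Nnm comparisons, by 2.03 and 1.98 at 24 h and 1.90 and 1.60 at 48 h (high and low dose, changes -2.03, -1.98, -1.90 and -1.60, adjusted p 0.00053, 0.0022, 0.00123 and 0.0129). G0S2, an inhibitor of the lipase PNPLA2, rose from 7.61 to 11.58 with the high dose at 48 h (change 3.97, SE 0.84, adjusted p 0.0014), and by 2.61 and 2.85 with the low dose at 24 h and 48 h (adjusted p 0.0474 and 0.0382). CHKA, choline kinase, rose by 2.32 and HILPDA, a droplet protein, fell by 1.92 with the high dose at 24 h (changes 2.32 and -1.92, adjusted p 0.00516 and 0.00158). MBOAT1, a lysophospholipid acyltransferase, rose by 2.22 with the high dose and 1.71 with the low dose at 48 h (adjusted p 0.0016 and 0.0285). CIDEB, which binds droplets, rose by 1.99 with the high dose at 48 h and 1.88 with the low dose at 24 h (adjusted p 0.0107 and 0.0266), with overlapping groups in the former.

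The calls were spread over the 8 roles at the high dose, beside the 23.1% and 16.8% of all genes called at 24 h and 48 h. The 11 regulators tested gave 0 calls at 24 h and 2 rises at 48 h. The 6 genes of citrate, acetyl-CoA and NADPH supply gave 2 rises and 2 falls at 24 h and 1 of each at 48 h, and the 9 partners of elongation and desaturation 1 of each at 24 h and 2 falls at 48 h. Mitochondrial fatty acid synthesis gave 1 fall of 3 at both times. Acyl-CoA and uptake genes gave 1 rise and 1 fall of 6 at 24 h and 1 rise at 48 h, and other acyl transfer genes 1 rise and 1 fall of 7 and then 2 rises and 1 fall. The phospholipid branch gave 1 rise and 1 fall of 12 at 24 h and 2 of each at 48 h, and the droplet genes 1 fall of 9 at 24 h and 2 rises and 1 fall at 48 h. With the replicate block the low dose gave 7 rises and 9 falls at 24 h and 5 rises and 7 falls at 48 h over the list. The count over the list was lower without replicate 1 or 3 of either group in all 4 comparisons. It was 6 without high-dose replicate 1 and 25 without high-dose replicate 2 at 24 h, and 6 without high-dose replicate 3 at 48 h. At the low dose it was 2 without vehicle replicate 3, 6 without vehicle replicate 2 and 16 without low-dose replicate 2 at 24 h. At 48 h it was 1 without vehicle replicate 3 or low-dose replicate 1 and 9 without low-dose replicate 2.

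With Ra at 48 h, 1 of the 63 genes rose and 8 fell, where 18.5% of all genes were called (2.97% higher and 15.6% lower), and with centred arrays 6 rose and 4 fell. IDH1, which makes NADPH in the cytosol, fell by 1.34 (change -1.34, adjusted p 6.39e-05), and ACBD3, a Golgi protein with an acyl-CoA binding domain, by 1.08 (change -1.08, adjusted p 0.000716). Without Ra replicate 2 both were still called (changes -1.05 and -0.80, adjusted p 0.00131 and 0.0175). OXSM, of mitochondrial fatty acid synthesis, and ELOVL4, an elongase of very long chains whose groups overlapped, fell by 1.17 and 1.07 (changes -1.17 and -1.07, adjusted p 0.00282 and 0.0437), but not without that array (changes -0.60 and -0.46, adjusted p 0.0731 and 0.484). The count was 4 without Ra replicate 2, 4 without vehicle replicate 1 or 2, and 14 without Ra replicate 1. With CsA, with Fk and with Ra at 12 h, 0 of the 63 genes were called, and from 0 to 8 passed an unadjusted p of 0.05. With CsA at 48 h the replicate block gave 1 rise and 3 falls, centred arrays gave 1 rise, and 2 genes were called without CsA replicate 1.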

How the data were processed

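Expression was measured in HK-2 cells on 48 single-channel arrays, 3 per group in 16 groups taken from the labels. Values for 54675 probe sets came from the deposited series table and lie on a log2 scale. The submitters' processing notes name GCRMA, without a version, as the step by which the authors made them, and they were used without further scaling. After 62 control probe sets were set aside, 41091 had 1 gene symbol, 1801 had several and 11721 were not listed in the platform annotation. Of the 41091, 41037 had a gene number in the RefSeq table, and 0 symbols changed. Probe sets over log2 4 in at least 3 arrays were kept (20960), and the one of highest mean stood for its gene.

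A single model with 1 mean per group was fitted with limma 3.58.1 (lmFit, eBayes; statmod 1.5.0, R 4.3.3), two-sided, for 24 comparisons and 1 added after the values were seen, and was tested on simulated data. Alternatives were centred arrays, quantile normalization, no filter, a filter at log2 6, the mean of a gene's probe sets, the replicate number as a block, the set's arrays alone, and each array left out; centring with Ra replicate 2 at 48 h left out was added after seeing the data. The members, gene lists and tests were chosen with earlier results of these data known. Named genes are the called members, up to 8 per treatment comparison, with SREBF1, ACLY, ACACA, FASN and SCD always, up to 4 called genes of the wider list per treatment comparison, and up to 4 members in each direction elsewhere; others were chosen after their values were seen.

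Groups share replicate numbers in the labels. Deviations from group means correlated above 0.1 in all 18 same-numbered pairs of the CsA set (0.24 to 0.93, mean 0.54) and all 45 of the Nnm set (0.14 to 0.79, mean 0.45). In the Fk and Ra set 19 of 45 did, beside 9 of its 90 differently numbered pairs. From these data the CsA and Nnm sets were taken as paired, but only the fit with the replicate block used the pairing. The main fit, its counts and the fits that left out an array did not pair arrays. No 2 arrays were identical.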

Additional observations from a re-analysis of the deposited data

Results flagged for a closer look

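The following differences between compounds or times passed a test of the difference itself; their causes were not tested. LPIN2 was higher with Fk than with Ra at 48 h, by 0.74 (limma adjusted p 0.00875), and PNPLA2 was lower, at -0.61 (adjusted p 0.0287); neither was called without Ra replicate 2. The change of LPIN2 with Ra differed between 48 h and 12 h by -1.31 (adjusted p 0.0107). The change at 12 h was 0.53 and was not called, and the difference missed the threshold with the mean of probe sets and with the set's arrays alone. A rise of 0.98 in the vehicle level of LPIN2 over these times is part of this difference. The change of DGAT2 with CsA at 48 h differed from that with Ra by -2.08 (adjusted p 0.0415). This call held in 5 of the 12 fits that left out an array, and was missed without the filter (adjusted p 0.0776). The change with CsA itself was not called (adjusted p 0.16), and the CsA and Ra arrays come from different sets.

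Between the high dose of Nnm and Ra at 48 h, the changes differed for 7 genes. GPAT3 differed by 3.60, CDS1 by 1.79, LPIN2 by 1.27 and LPIN1 by 1.25. SREBF1 differed by -1.05, FASN by -1.65 and AGPAT2 by -0.82. The limma adjusted p-values ran from 0.00193 for GPAT3 to 0.049 for CDS1. Only the calls of GPAT3 and LPIN2 held with any array left out. This comparison was added after the values were seen, and the 2 sets differ in more than the compound.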

How the results depend on the processing

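Counts are of the 29 genes called. With the replicate number as a block they were 1 for CsA at 48 h (0 before), 10 for Ra at 48 h (5), 3 for the low dose of Nnm at 48 h (1), 10 for Fk against Ra at 48 h (2), 3 for the time difference of Ra (1), 3 for CsA against Ra (1) and 6 for CsA vehicle over time (3); the block changed no other count by over 1.5 times. In the Fk and Ra set the numbers paired the arrays weakly at most, so that set was not taken as paired. Its same-numbered arrays correlated from -0.18 to 0.76 (mean 0.10), beside a mean of -0.05 for differently numbered arrays. With centred arrays, and with quantile normalization, the counts were 2 for Ra at 48 h, 4 for the low dose of Nnm at 48 h, 2 for CsA against Ra and 6 for CsA vehicle over time. Without the filter they were 2 for Ra at 48 h, 0 for CsA against Ra, 1 for CsA vehicle over time and 3 for the high dose of Nnm against Ra (7). With the mean of probe sets they were 2 for Ra at 48 h, 1 for Fk against Ra at 48 h, 0 for the time difference of Ra and 2 for CsA against Ra. With the set's arrays alone they were 0 for Ra at 48 h, for Fk against Ra at 48 h and for the time difference of Ra, 5 for the low dose of Nnm at 48 h, 2 for CsA against Ra and 4 for vehicle over time in the Fk and Ra set (7). With centred arrays and Ra replicate 2 left out they were 0 for Ra at 48 h, for Fk against Ra at 48 h and for the time difference of Ra. With 1 array left out, counts ran from 0 to 11 for Ra at 48 h, 3 to 15 and 2 to 5 for the high dose of Nnm at 24 h and 48 h, 0 to 2 for the low dose at each time and for the high against the low dose at 24 h, 0 to 1 for CsA at 48 h and for Fk against Ra at 12 h, 0 to 8 for Fk against Ra at 48 h, 1 to 5 for the time difference of Ra, 0 to 2 for CsA against Ra, 2 to 8 for the high dose of Nnm against Ra, and 1 to 5 and 2 to 6 for vehicle over time in the CsA set and the Fk and Ra set. SCD with the low dose of Nnm at 24 h (0.01) turned to -0.01 with centred arrays and -0.04 with the mean of probe sets, and ran from -0.04 to 0.04 with 1 array left out; ACLY there (-0.04) ran from -0.10 to 0. The causes were not tested. Signal over background limits FADS2 and LPIN3, which were not tested, and DGAT2 with CsA at 48 h. It also limits SLC27A3 of the wider list in Nnm vehicle at 24 h, and the marker PECAM1.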
